A study of Mus musculus with 9 samples.

Results

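The chromatin around Gata6 and Sox9 was described in 3 mouse pancreatic cancer cell lines, from enriched regions of 3 histone marks measured by chromatin immunoprecipitation and sequencing (ChIP-seq). The members were all regions of the 9 lists that overlap a window around either gene on genome build mm9. The Gata6 window was chr18:10950000-11190000, which is a gene interval of 40 kb with flanks of 100 kb. The Sox9 window was chr11:112340000-112950000, a gene interval of 10 kb with flanks of 300 kb. The intervals are the windows less their flanks, and below and above mean lower and higher coordinates. In all, 75 of the 185632 regions lay in these windows, 15 at Gata6 and 60 at Sox9. H3K4me3 gave 7 of them, H3K27ac 31 and H3K27me3 37.

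Gata6 encodes a zinc-finger transcription factor that is needed for the growth and differentiation of pancreatic epithelium, and its level separates the classical from the basal-like form of pancreatic ductal carcinoma. Sox9 encodes a transcription factor of the HMG-box family that maintains pancreatic progenitors and later marks ductal cells. H3K4me3 is found at promoters and H3K27ac at active promoters and enhancers, while H3K27me3 is laid down by Polycomb repressive complexes at silenced genes. The product of Kdm6a, a gene of the X chromosome, takes the methyl groups of H3K27me3 off again.

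Of the 3 lines, 1 female and 1 male line lacked Kdm6a, here called female KO and male KO, and the remaining male line was wild type for it (WT). The mice had a mixed C57BL/6-SV129 background, the tissue was pancreas, and the untreated cells grew in F12/DMEM supplemented with EGF. There was 1 library per line and mark. The spread between replicates is therefore unknown, no p-value was computed, and each difference below is between 2 cell lines and cannot be told apart from line, sex (female KO against WT) or library. How the tumours arose, the ages of the mice and whether a line is 1 clone are not stated in the labels.

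The lists held between 14056 and 28263 regions and between 2396174 and 18507923 reads in regions, with the fewest reads in the WT libraries for H3K27ac and H3K27me3 and in the male KO library for H3K4me3. In 200 bp bins held by all 3 lists of a mark, the median log2 ratio of reads to WT on autosomes was 0.09 (female KO) and -0.56 (male KO) for H3K4me3, 0.81 and 1.15 for H3K27ac, and 1.88 and 0.38 for H3K27me3. All log2 ratios below are relative to these medians and are called centred. Centring also removes any difference between lines that is shared over the genome, and depth cannot be told apart from it. Each bin carries the mean density of its region, so the ratios compare whole regions and not reads placed in the shared bins. The deletion of Kdm6a was not checked here, as no gene model of mm9 was used. On the X chromosome the H3K27me3 lists held 1965 regions in female KO against 74 and 48 in male KO and WT, and regions on the Y chromosome appeared in male lists only, 0 to 10 per list.

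Gata6 carried H3K4me3 and H3K27ac in all 3 lines, and in male KO the same stretch also carried H3K27me3. The regions lay over the lower end of the gene interval, as the map of the Gata6 window shows. In the GRCm38.p6 gene table the next protein-coding genes are Mib1 and Rbbp8. No exon or promoter was assigned, because that table belongs to another assembly.

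**Figure D1:**
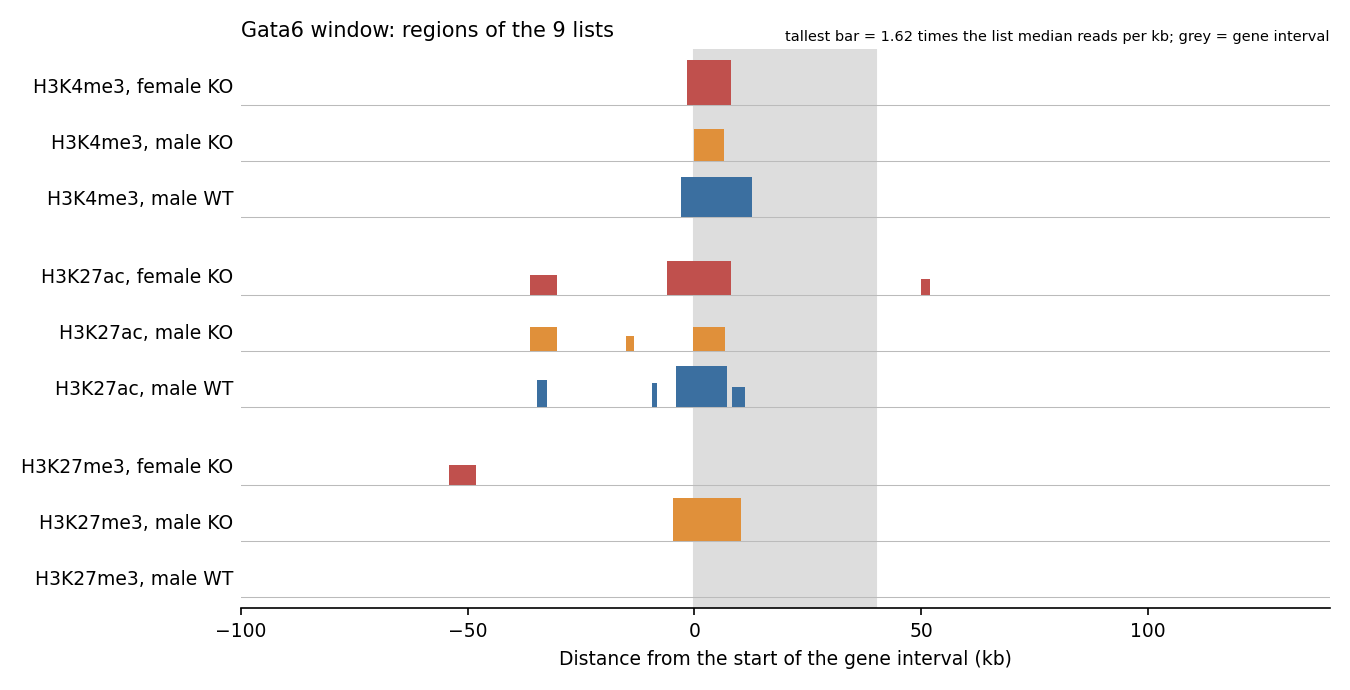
Regions of the 9 lists in the Gata6 window, by distance from the start of the gene interval (kb). Bar width is the region, bar height its reads per kb over the median of its list (the tallest bar is 1.62 times), and grey marks the 40 kb gene interval. H3K27me3 reaches the gene interval in male KO alone.

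The H3K4me3 region at Gata6 was widest in WT, the line with Kdm6a. It ran over 15.6 kb in WT (chr18:11047001-11062600), over 9.6 kb in female KO (chr18:11048401-11058000) and over 6.6 kb in male KO (chr18:11049801-11056400). The WT region was among the widest of its list, with 0.995% of WT regions wider, against 16.3% in female KO and 11.0% in male KO. Reads in H3K4me3 regions numbered 12828427 in WT, 16144388 in female KO and 7432359 in male KO, and the part of depth in these widths was not tested. All 3 lists held 64.9% of merged H3K4me3 regions. Over these 12072 regions, the WT length was a median of 0.850 times the longer KO length. At Gata6 it was 1.62 times, a ratio reached by 192 of them, or 1.59%.

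Read density did not follow width. H3K4me3 reached 235 reads per kb in female KO (95% Poisson interval 225 to 244), 105 in male KO (96.9 to 113) and 190 in WT (183 to 197). These intervals cover counting error only. Over the 6.6 kb that all 3 lists held, the centred log2 ratio to WT was 0.21 in female KO (95% interval 0.10 to 0.31). In male KO it was -0.30 (-0.44 to -0.17). Counts were spread evenly over each region, so these ratios compare the mean densities above, edges of the wider regions included. Neither reached the 2-fold difference used as a call here. Over the genome, 1.41% of H3K4me3 regions with shared bins were at least 2-fold higher in female KO than in WT and 0.429% at least 2-fold lower in male KO.

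H3K27ac lay on the same stretch in each line. The region covered 14.0 kb in female KO (chr18:11044001-11058000) with 57.0 reads per kb (53.1 to 61.1). In male KO it covered 7.2 kb (chr18:11049601-11056800) with 48.3 reads per kb (43.4 to 53.7). In WT it covered 11.2 kb (chr18:11046001-11057200) with 43.8 reads per kb (40.0 to 47.9), and a further 3.0 kb followed at 21.3 reads per kb (16.4 to 27.2). The WT library had the fewest reads in regions for this mark. Relative to the shared bins of the genome, the density in the merged region was lower in the KO lines. The centred log2 ratios were -0.43 in female KO (-0.64 to -0.22) and -1.01 in male KO (-1.23 to -0.79). The male KO value passed a 2-fold difference, with a counting interval that spans it. Over all H3K27ac regions with shared bins on autosomes, 1.54% were at least 2-fold lower in male KO and 3.02% in female KO.

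Away from the gene, 1 H3K27ac region was common to the 3 lines. It lay 30.2 kb below the gene interval in the KO lines (chr18:11013801-11019800, 203 reads in female KO and 288 in male KO) and within it WT held 2.4 kb with 70 reads. The remaining 4 merged regions of the window were single to 1 line, 1.2 to 3.0 kb long. They include the 3.0 kb WT region described above, which lies in the gene interval. Of the 6 merged H3K27ac regions of the window, 2 were in all 3 lists, 2 in WT and neither KO, 1 in female KO alone and 1 in male KO alone. Over the genome, 44.6% of merged H3K27ac regions were in all 3 lists and 8.15% in WT and neither KO. Female KO alone held 10.3% and male KO alone 16.5%.

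H3K27me3 lay over the Gata6 interval in 1 of the 3 lines. In male KO a region of 15 kb (chr18:11045201-11060200) held 383 reads, or 25.5 per kb (23.0 to 28.2), and 10.2 kb of it lay in the gene interval. The WT list had no region anywhere in the window, and the female KO list had a single one of 5.8 kb with 144 reads, 48.2 kb below the gene interval. Scaled to WT, that female KO region would have 6.73 reads per kb, under the lowest WT region at 7.67. Scaled to male KO it would have 8.75, with 0.0142% of male KO regions lower. The part of depth in its absence from these lists was not tested. In the male KO list, 6.07% of regions were denser than the one at Gata6. Scaled to the other libraries by the shared bins, the density of the male KO region would be 19.6 reads per kb in WT and 72.5 in female KO. Of the regions that were called there, 89.4% in WT and 94.7% in female KO were below these levels. Over the genome, 20.9% of merged H3K27me3 regions were in male KO alone. Among these 6842, the median held 14.6 reads per kb over 3.6 kb, and 72 were at or above the Gata6 region in density and 70 in width.

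The male KO line had all 3 marks over 6.6 kb at Gata6, the full length of its H3K4me3 region. In the other lines H3K4me3 overlapped H3K27ac without H3K27me3, over 9.6 kb in female KO and over 13.2 kb in WT. Of the 12072 H3K4me3 regions held by all 3 lists, 9.30% overlapped both H3K27ac and H3K27me3 in male KO. H3K27me3 in male KO and in neither other line was found at 0.431% of them, and together with H3K27ac in all 3 lines, as at Gata6, at 26 regions, or 0.215%. A bulk library cannot tell marks on the same chromosome from marks on different alleles or in different cells of a line.

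Sox9 carried H3K4me3 in all 3 lines, H3K27ac in the KO lines and not in WT, and H3K27me3 at its border in female KO. The broadest H3K27ac of the window lay more than 200 kb from the gene, and H3K27me3 regions lay on both sides of the gene in each line. In the GRCm38.p6 table the next protein-coding genes are Gm11677 and Slc39a11.

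**Figure D2:**
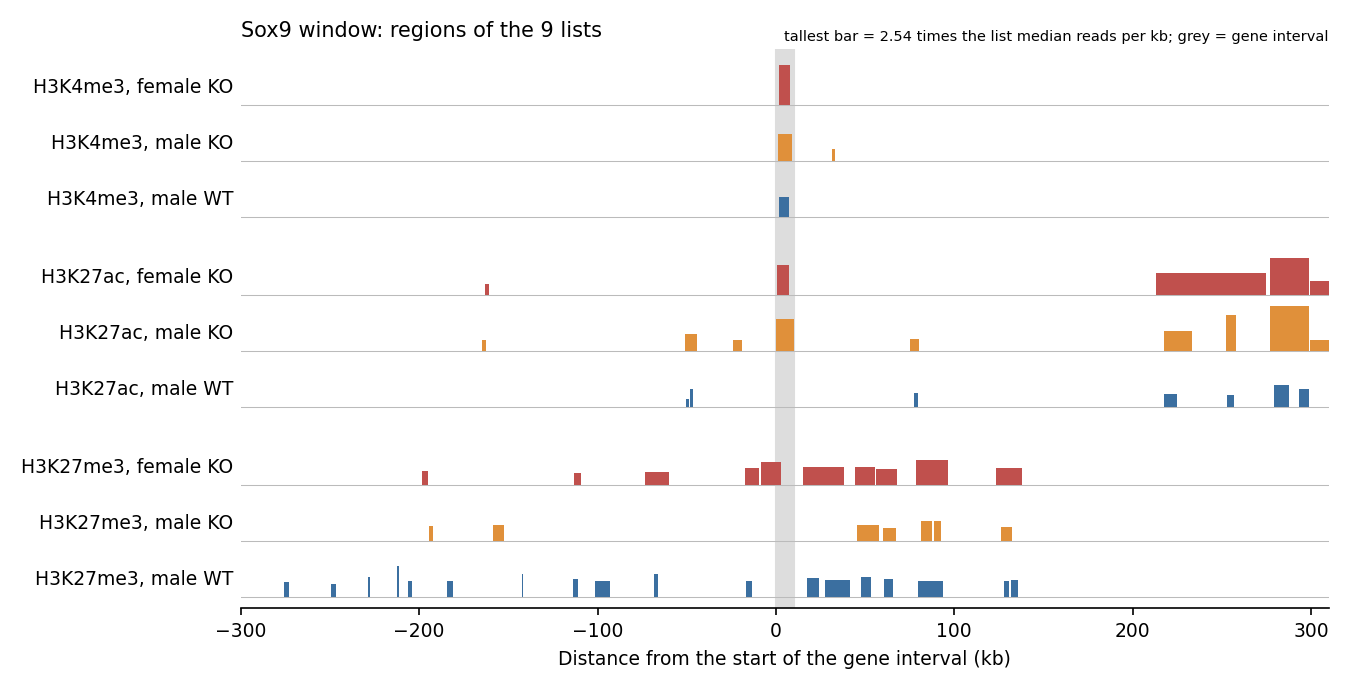
Regions of the 9 lists in the Sox9 window, by distance from the start of the gene interval (kb). Bar width is the region, bar height its reads per kb over the median of its list (the tallest bar is 2.54 times), and grey marks the 10 kb gene interval. H3K27ac is on the gene in the KO lists and not in WT, and the far cluster is on the right in all 3.

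H3K4me3 at Sox9 covered 6.4 kb in female KO (chr11:112641601-112648000), 7.8 kb in male KO (chr11:112641401-112649200) and 5.6 kb in WT (chr11:112641601-112647200). Density was 331 reads per kb in female KO (317 to 345), 139 in male KO (131 to 148) and 149 in WT (139 to 160). Both KO lines were above WT after centring, by a log2 ratio of 1.05 in female KO (0.93 to 1.17) and 0.46 in male KO (0.32 to 0.60). Before centring the ratios were 1.15 and -0.10, so the positive sign in male KO comes from the centring. Of the centred values, that of female KO passed a 2-fold difference, again with an interval that spans it. This is a size that 1.41% of H3K4me3 regions with shared bins reached upward in female KO and 3.62% in male KO. In female KO, 1.52% of the list's regions were denser than the one at Sox9, against 16.7% in male KO and 42.0% in WT. Male KO also held a second, smaller H3K4me3 region 21.2 kb above the gene interval (chr11:112671201-112673200, 121 reads), which was in neither other list. Over the genome 10.4% of merged H3K4me3 regions were in male KO alone and 64.9% in all 3 lists.

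H3K27ac covered the Sox9 gene interval in the KO lines only. The female KO region spanned 6.4 kb (chr11:112640801-112647200) with 78.6 reads per kb (71.9 to 85.8). The male KO region spanned 10.4 kb (chr11:112639801-112650200) with 99.8 reads per kb (93.8 to 106). WT had none, and its nearest H3K27ac region ended 46.6 kb below the gene interval. The WT library had the fewest reads in H3K27ac regions, and its total depth is not known. Scaled to WT by the shared bins, the densities would be 44.9 reads per kb from female KO and 45.0 from male KO. Of the regions that were called in WT, 85.2% were below either level, and the lowest held 9.64 reads per kb.

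Both KO lists without WT held 9.68% of all merged H3K27ac regions, and 2 of the 8 in the Sox9 window. The region at the gene was dense for this pattern. The 2603 regions of this pattern had a median of 19.0 reads per kb, scaled to WT and taking the lower of the KO lines. At Sox9 this was 44.9, a level reached by 6 of them, or 0.231%. H3K27ac in both KO lines and not WT was found at 8.89% of the H3K4me3 regions held by all 3 lists, and at 73.9% all 3 lines carried H3K27ac.

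The far H3K27ac cluster was present in all 3 lines and covered more length in the KO lines. Within the last 100 kb of the window, from 200 to 300 kb above the gene interval, H3K27ac covered 94.4 kb in female KO, 53.2 kb in male KO and 25 kb in WT. That stretch held 91.8% of the window's H3K27ac reads in female KO (95% Wilson interval 91.1 to 92.4%), 72.7% in male KO (71.6 to 73.7%) and 84.3% in WT (81.7 to 86.7%). The reads of regions that cross the window's edge were divided by length. The highest density of the window was in the same place in each line, at chr11:112917001-112938800 in the KO lists, with 98.1 reads per kb in female KO and 141 in male KO. Within it, WT had 36.2 reads per kb at chr11:112919001-112927600. Its centred log2 ratio to WT was 0.73 in female KO and 0.92 in male KO. For the merged region before it (chr11:112852801-112914800) the values were 0.69 and 0.80, and for the one that crosses the edge 0.18 and 0.59. None passed 2-fold, a level that 0.940% of H3K27ac regions exceeded upward in female KO and 0.604% in male KO.

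When regions within 10 kb were joined, the cluster became a domain of 127.6 kb in female KO (chr11:112852801-112980400, 7922 reads), which ranked 173 of 13187 by reads. In male KO the domain of 62.8 kb (chr11:112917001-112979800, 6058 reads) ranked 160 of 17279. These domains ran 30.4 and 29.8 kb past the window's edge. The highest-ranked WT domain in the window spanned 19.6 kb (chr11:112919001-112938600, 466 reads) and ranked 2037 of 14309, or 3281 when regions within 5 kb were joined. A further WT domain of 21.8 kb just past the edge (chr11:112955001-112976800, 567 reads) ranked 1609, so the gap in span and rank depends in part on the edge and on the joining distance. Over the whole stretch of the female KO domain, H3K27ac covered 124.2 kb in female KO, 80.8 kb in male KO and 44.2 kb in WT. By covered length the female KO domain ranked 84. The domain at the Gata6 gene ranked 1540 in WT, 3594 in female KO and 7645 in male KO. Which gene the far cluster acts on was not measured.

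Smaller H3K27ac regions nearer to Sox9 differed between the lines. Male KO and WT shared a region 44.2 kb below the gene interval (chr11:112588801-112595800 in male KO) and one 65.0 kb above it (chr11:112715001-112720400), and female KO had neither. This pattern made up 8.21% of merged H3K27ac regions. A region of 5.0 kb, 18.8 kb below the gene interval, was in male KO alone. Further out, 1.8 kb in female KO and 2.2 kb in male KO lay 161 and 162.4 kb below the gene interval and were not in WT, with 52 and 75 reads. Scaled to WT, these last would have 16.5 and 15.4 reads per kb, and 4.75% and 2.57% of WT regions were below those levels.

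H3K27me3 covered 117.8 kb of the Sox9 window in female KO, 83.4 kb in WT and 45.4 kb in male KO, in 10, 18 and 7 regions. WT had the most regions, and they were short, from 1.0 to 14.0 kb. The lists covered 31.2 kb of the lower flank in WT, 37.2 kb in female KO and 8.6 kb in male KO. In the upper flank, on the side of the far H3K27ac cluster, they covered 77.8 kb in female KO, 36.8 kb in male KO and 52.2 kb in WT. Here 3 merged regions were in all 3 lists, at chr11:112684201-112707800, chr11:112718601-112736200 and chr11:112763401-112777800. Their centred log2 ratios were -0.84, -0.03 and -0.66 in female KO and -0.64, 0.07 and -0.41 in male KO. The intervals of the second region spanned 0 in both lines (-0.30 to 0.24 and -0.25 to 0.38), and that of the third spanned 0 in male KO (-0.98 to 0.16). None passed 2-fold, while 9.09% of H3K27me3 regions with shared bins were at least 2-fold lower in female KO and 0.263% in male KO.

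The line without a called H3K27me3 region close to Sox9 was male KO. Its nearest region started 35.4 kb above the gene interval, whereas WT had regions 13.4 kb below and 7.6 kb above it. Scaled to male KO, the WT regions in these merged regions would have 17.3 and 18.6 reads per kb. Of male KO regions, 58.0% and 69.0% were below those levels. From female KO the levels would be 11.2 and 11.9, with 1.59% and 3.74% below. The part of depth in this absence was not tested. In female KO H3K27me3 came up to the gene, with a region of 11.4 kb (chr11:112631401-112642800, 44.3 reads per kb, 40.5 to 48.3) that overlapped the H3K4me3 region over 1.2 kb and the H3K27ac region over 2.0 kb. H3K27me3 was found in female KO at 30.5% of the H3K4me3 regions held by all 3 lists, 15.9% in female KO and in neither other line. Scaled to WT, the density of the female KO region at the gene would be 12.0 reads per kb, and 12.9% of WT regions were below that. Scaled to male KO it would be 15.6, and 38.9% of male KO regions were below that. Of the 19 merged H3K27me3 regions of the window, 8 were in WT and neither KO and 4 in female KO and WT without male KO. A further 2 were in female KO alone and 2 in male KO alone. Over the genome these patterns made up 12.4%, 3.51%, 25.7% and 20.9% of merged H3K27me3 regions. In all 3 lists were 3 of the 19, against 21.6% over the genome. The 8 in WT and neither KO held 19 to 110 reads each. Scaled to male KO they would have 13.9 to 33.8 reads per kb, with 19.0% to 99.0% of male KO regions below. Scaled to female KO the levels would be 39.3 to 95.9, with 66.6% to 98.5% of female KO regions below. No merged H3K27me3 region of either window was in both KO lists and not WT, a pattern of 9.73% of regions genome-wide.

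**Figure D3:**
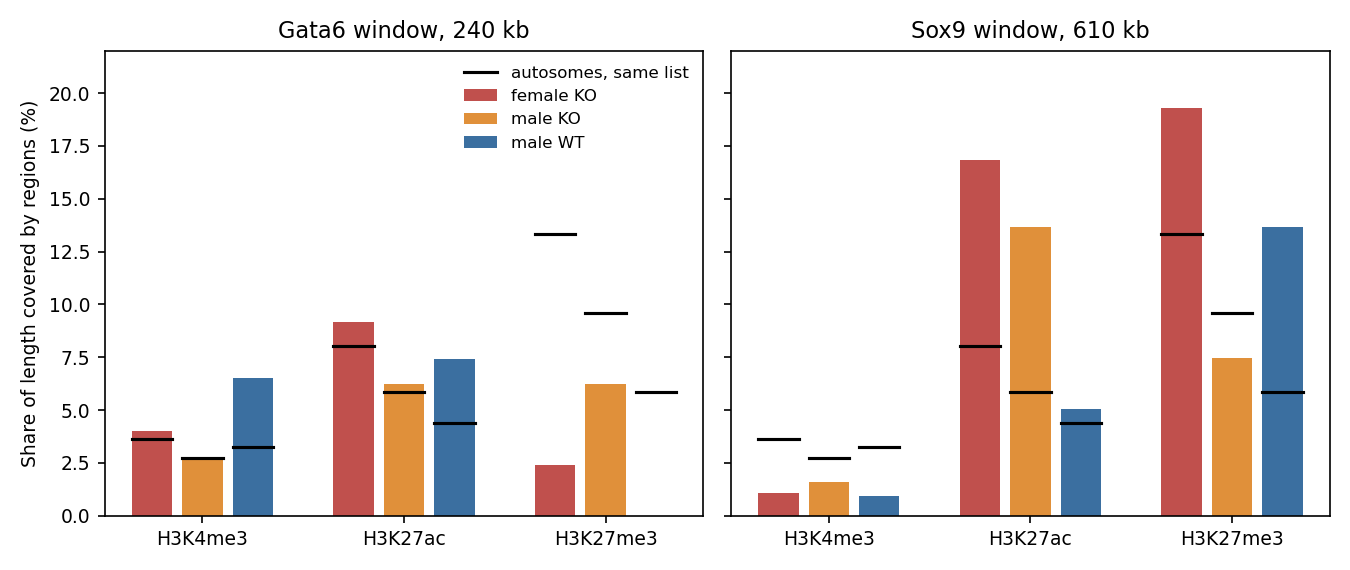
Share of each window covered by regions (%, bars) in the 3 lines, for each mark, with the share of the autosomes covered by the same list (black lines). H3K27ac in the Sox9 window is above the autosomal share most clearly in the KO lines, and H3K27me3 in the Gata6 window is below it in all 3 lines.

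The covered shares were set beside those of tiled autosomal windows of the same length. H3K27ac covered 5.05% of the Sox9 window in WT against 16.8% in female KO and 13.6% in male KO, as the plot of covered shares shows. The difference to WT was 11.8 percentage points in female KO and 8.59 in male KO. Among 4044 autosomal windows of 610 kb, 10.1% showed a greater difference in female KO and 3.64% in male KO. With halved flanks, which leave the far cluster out, the differences were 0.194 and 7.10 points, so that of female KO lay almost wholly in the cluster. Those points are shares of a shorter window. Outside the last 100 kb, H3K27ac covered 8.2 kb in female KO, 30 kb in male KO and 5.8 kb in WT. Within it the lengths were 94.4, 53.2 and 25 kb, so part of the male KO difference lay there as well. H3K27me3 in the Sox9 window differed from WT by 5.64 points in female KO and by -6.23 points in male KO. Of the windows, 34.2% were higher than the female KO value and 1.85% lower than the male KO value. The median window had 0.770% cover in WT against 13.7% at Sox9, so many windows could not fall that far. For H3K4me3 the Sox9 differences were 0.131 and 0.689 points, with 39.4% and 4.06% of windows higher. At Gata6, H3K4me3 covered 6.50% of the window in WT against 4% in female KO and 2.75% in male KO. Of 10286 windows of 240 kb, 2.58% fell further below WT in female KO and 4.26% in male KO. The median window had 0% H3K4me3 cover in WT, and 17.5% had more than Gata6. Many windows thus had no cover to lose, which keeps these shares small. H3K27ac there covered 7.42% in WT against 9.17% in female KO and 6.25% in male KO, and H3K27me3 covered 0% against 2.42 and 6.25%. For H3K27ac, 35.3% of windows had a higher difference to WT in female KO and 8.83% a lower one in male KO. The latter share has the same limit, as the median window had 0.667% H3K27ac cover in WT. For H3K27me3, 35.2% were higher in female KO and 19.3% in male KO, so the window as a whole was ordinary for that mark. Both KO comparisons use the same WT lists, so they are not independent of each other. The lists of a mark were also cut to one covered length, densest regions first. The female KO difference then changed sign for H3K27me3 at Sox9 (-13.7 points) and for H3K27ac at Gata6 (-1.58 points). All female KO H3K27me3 regions of the Sox9 window were lost, the one at the gene included. Male KO H3K27me3 there fell from 45.4 to 10.2 kb. With regions below the median count of each list left out, the male KO difference for H3K27ac at Gata6 changed sign (0.833 points).

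**Figure D4:**
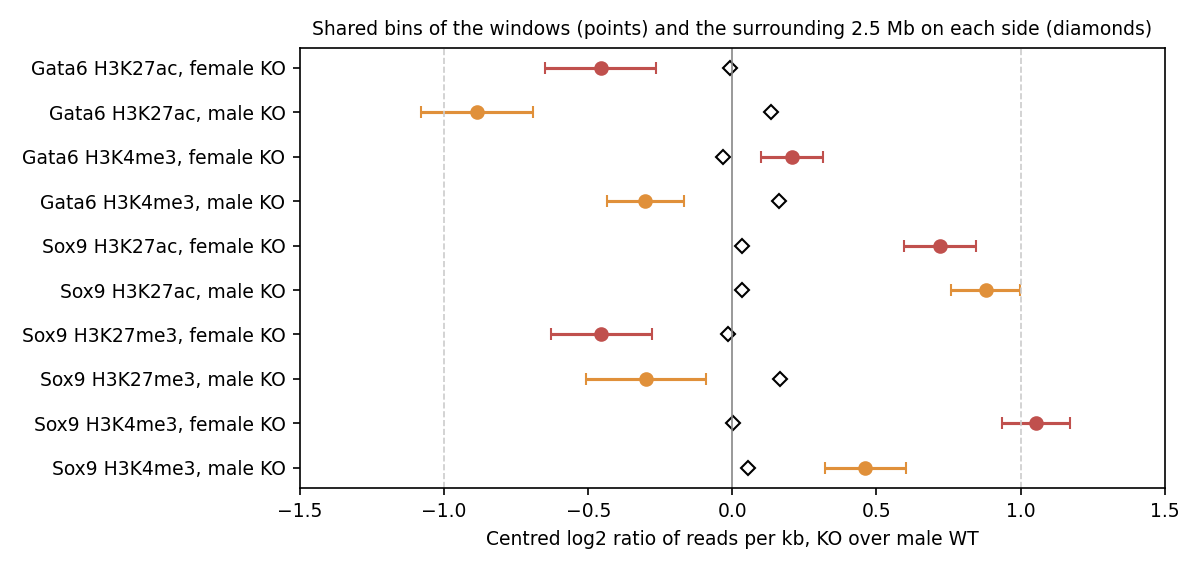
Centred log2 ratio of reads per kb, KO over WT, in the bins of each window that all 3 lists of the mark hold (points, 95% intervals for counting error), and its median over shared bins within 2.5 Mb on each side of the window (diamonds). The points of Sox9 H3K27ac and H3K4me3 lie to the right of 0 and those of Gata6 H3K27ac to the left, while the diamonds lie between -0.03 and 0.17.

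Pooled over the shared bins of a window, H3K27ac was above WT at Sox9, with centred log2 ratios of 0.72 in female KO (0.60 to 0.84) and 0.88 in male KO (0.76 to 0.999), and below WT at Gata6, with -0.46 (-0.65 to -0.26) and -0.89 (-1.08 to -0.69). For H3K27me3 at Sox9 the ratios were -0.45 (-0.63 to -0.28) and -0.30 (-0.51 to -0.09). Before centring, the ratios were 1.43 and 0.08 for H3K27me3 at Sox9 and 0.35 and 0.26 for H3K27ac at Gata6. The negative signs there thus come from the centring, as does the positive sign of H3K4me3 at Sox9 in male KO (-0.10 before centring). A change shared over the genome was not tested. In the 2.5 Mb on each side of the windows the median centred ratio lay between -0.03 and 0.17 for these marks and lines. Copy number was not measured. In total, 10 of the 38 merged regions had bins in all 3 lists. Over the genome, 11642 of 18606 H3K4me3, 11596 of 26892 H3K27ac and 6842 of 32728 H3K27me3 merged regions had them on autosomes. In each KO comparison 1 region passed 2-fold, H3K4me3 at Sox9 in female KO and H3K27ac at Gata6 in male KO. Of all regions with shared bins, 1.41% and 1.54% passed it for that mark, line and direction.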

How the data were processed

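The 9 libraries were aligned and enriched regions were called with Bowtie 1.1.2 and SICER 1 on mm9, per the submitters' processing notes, 1 list per library. The deposited lists give each region's chromosome, start, end and a whole number, used here as its read count, because they have no header and follow the layout that SICER writes. The control, the false discovery rate and the library totals are not given in the labels, so depth is known only as reads in regions. Starts and ends are printed from 1.

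Lists were turned into 200 bp bins with each count spread evenly over its region, using Python 3.11.15 (pandas 2.3.3, numpy 2.4.6, matplotlib 3.10.9, scipy 1.17.1). Regions of a mark that overlap by at least 1 bp were merged over the lines. The arithmetic was tested on simulated data and against bedtools 2.31.1, with 0 of 6 pairs of lists differing. No low-count filter was used. Alternatives were regions at or above the median count, lists cut to the same covered length, gaps under 1 kb closed, halved flanks, an overlap of 50%, another centring, and other stitching and ranking. Regions named were taken from those on the gene interval, the longest and densest of each list, and those that mark a pattern of lines. Not every such region is named, as for WT H3K27me3 at Sox9. Ranks among regions of the same pattern and levels scaled between libraries were added after the values were seen. The members and lists were chosen with earlier results of these data known.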

Additional observations from a re-analysis of the deposited data

Results flagged for a closer look

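In 2 cases the KO lines lay on opposite sides of WT in the share of a window covered. H3K27ac in the Gata6 window differed from WT by 1.75 percentage points in female KO and by -1.17 in male KO. H3K27me3 in the Sox9 window differed by 5.64 points in female KO and by -6.23 in male KO. With 1 library per line and mark the difference between the KO lines was not tested, and both are set against the same WT list.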

How the results depend on the processing

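The marks over the gene intervals were the same when regions below the median count of their list were left out. With lists cut to one covered length, all female KO H3K27me3 regions of the Sox9 window were lost. The number of lines with the mark on the gene interval thus went from 1 to 0. H3K27me3 at Gata6 in male KO and H3K27ac at Sox9 in the KO lines alone were as before. No mark covered 50% of the Gata6 interval in any line, nor did H3K27me3 at Sox9, so 0 lines counted in these 4 cases. Covered shares moved more, given here as KO minus WT in percentage points. Under that cut they were -1.58 (female KO) and -4.42 (male KO) for H3K27ac at Gata6, 0 for H3K27me3 at Gata6 in female KO, 9.74 and 4.82 for H3K27ac at Sox9, and -13.7 and -12.0 for H3K27me3 at Sox9. The female KO values of H3K27ac at Gata6 and H3K27me3 at Sox9 thus changed sign. That cut removes regions from the longer lists only. Without regions below the median count, H3K27ac at Gata6 in male KO changed sign to 0.833, H3K27me3 at Gata6 in female KO fell to 0 and H3K27me3 at Sox9 in male KO was -3.08. With halved flanks, which leave out the far cluster, H3K27ac at Sox9 was 0.194 and 7.10 and H3K27me3 at Sox9 14.2 and -10.8. H3K4me3 in male KO was 1.35 at Sox9 and -6.43 at Gata6, and H3K27me3 at Gata6 was 1.29 and 10.7. Halved flanks also shorten the window, so the same covered length makes a larger share. For H3K4me3 at both genes and H3K27me3 at Gata6 in male KO, no covered length was lost. Those differences grew through the shorter window alone. Closing gaps under 1 kb changed H3K27me3 at Sox9 to 5.77 (female KO) and -6.10 (male KO). H3K27ac at Sox9 in male KO became 8.62, and the other shares stayed as they were. Centring on the ratio of sums moved none of the 10 log2 ratios beyond its counting interval. By covered length the highest domain of the Sox9 window in female KO ranked 84, and with stitching within 5 kb that of WT ranked 3281. No paired analysis was possible because each group has 1 library. The missing replicates and the few reads in the WT lists limit all of these values.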
